A study of Mus musculus with 4 samples.

Results

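Chemokines are small secreted proteins that draw cells along a gradient through receptors on the cell surface. The 10 chemokine genes described here, Ccl1, Ccl3, Ccl4, Ccl5, Ccl9, Ccl20, Ccl22, Xcl1, Cxcl9 and Cxcl10, were taken by name out of 23990 gene symbols as ligands that T cells or their partners can make. Each of the 10 had a row in the tables of both tissues, and 9 reached the mean of 1 FPKM (fragments per kilobase of transcript and M mapped fragments) in at least one tissue that was required for a test. RNA came from effector CD4 cells (CD44+CD4) of wild type C57BL/6 mice (C57BL/6J in the Methods) with EAE, a model of MS that was induced with a MOG peptide in complete Freund's adjuvant and pertussis toxin. There were 2 libraries of cells from the spinal cord (CNS) and 2 of cells from pooled draining lymph nodes (dLN), both taken at disease onset. According to the Methods, the sorted cells of both tissues were kept with PMA and ionomycin for some hours to activate them before RNA was made, whereas the sample labels speak of fresh sorting and name no stimulation. The age of the mice is not given in the sources used here, nor is whether the 2 libraries of a tissue came from separate animals, so p-values measure the spread between these libraries, which may be technical.

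Members of the chemokine family are named for the spacing of their first cysteines, and they fall into circuits by receptor. Ccl3, Ccl4 and Ccl5 are inflammatory chemokines that draw effector T cells and monocytes, and Ccl3, Ccl5 and Ccl9 act on Ccr1. Cxcl9 and Cxcl10 are induced by interferon gamma and act on Cxcr3, the receptor of Th1 cells. Ccl1 acts on Ccr8, Ccl22 on Ccr4, Xcl1 on Xcr1 of cross-presenting dendritic cells, and Ccl20 on Ccr6, the receptor of conventional Th17 cells. Activated T cells are a known source of Ccl1, Ccl3, Ccl4, Ccl5, Xcl1 and Ccl20, while Ccl9, Ccl22, Cxcl9 and Cxcl10 are best known from myeloid and dendritic cells.

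The libraries held an estimated 18.6 M to 21.8 M fragments, read from the steps of low FPKM values. The T-cell identity of the cells was checked on 13 genes, of which none was listed at 0 in any library. Cd4 was at 502 and 531 FPKM in CNS and at 82.0 and 66.7 FPKM in dLN. Cd8a reached at most 0.834 FPKM, and Cd8b1 lay between 3.38 and 4.56 FPKM. CNS replicate 2 stood apart in genes of other cells. The summed FPKM of 15 macrophage and microglia markers was 29.7 in CNS replicate 1 and 275 in CNS replicate 2, against 4.61 and 4.22 in dLN, where 8 and 10 of them were listed at 0. The sum of 9 neutrophil markers was 2.65 and 218 in the CNS libraries and at most 0.255 in dLN. For 10 dendritic cell markers it was 10.4 and 28.5 in CNS and 14.3 and 5.21 in dLN, where Batf3 gave 10.8 of the 14.3. Markers of glia, neurons and endothelium had like sums in the CNS libraries, at 156 and 158 FPKM against 76.8 and 73.1 FPKM in dLN. Most of the CNS sums came from Cnp (82.8 and 77.5 FPKM), Mbp (48.6 and 44.5 FPKM) and Pecam1 (18.7 and 20.1 FPKM). In dLN Cnp was at 8.80 and 5.12 FPKM, and Mbp was higher than in CNS, at 55.5 and 57.7 FPKM. The sums therefore say little about the other markers of this list, and 10 of the 16 were over 1.5-fold higher in CNS replicate 2. The sums for CD8 T and NK cells were 86.2 and 86.7 FPKM in CNS against 59.8 and 54.4 FPKM, with 4 of 10 genes over 1.5-fold higher in CNS replicate 2. Klrc1 alone took 75.8 and 71.7 FPKM of these sums in CNS and 56.1 and 50.8 FPKM in dLN. The sum of 7 B-cell markers was at most 1.81 FPKM. The sum of the 13 T-cell genes differed little between the CNS libraries, at 4170.0 and 4292 FPKM. The libraries also differed in sex-linked transcripts, since Ddx3y had 12.7 and 11.2 FPKM in CNS and none in dLN, and Xist was close to 0 in CNS (up to 0.00260 FPKM) against 26.6 and 22.3 FPKM in dLN, so sex and tissue cannot be told apart.

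Between CNS and dLN, 4 of the 9 chemokine genes tested passed limma at a Benjamini-Hochberg adjusted p-value under 0.05, which is what called means here. Ccl5, Cxcl10 and Cxcl9 were higher in CNS and Ccl20 was lower. Across the 10634 genes tested, 74.9% were called, 37.8% as higher and 37.2% as lower in CNS, so the share of chemokine genes called was not above the background. The CNS libraries both lay above both dLN libraries for 5 of the 9 genes and below for 1, and the libraries overlapped for Ccl1, Ccl4 and Xcl1. Such separation of the tissues was seen in 89.4% of the genes tested. Log2 ratios are CNS over dLN on log2(FPKM + 1) throughout, and their median was 1.48 over the 9 genes and 0.05 over the genes tested. Cxcl9 and Ccl22 passed the filter through CNS alone, so their presence among the 9 goes with a higher level there. For that reason neither the number called higher nor the median is a result about the 9 genes. In bulk RNA a lower level may come from fewer cells that make a transcript or from less of it per cell, and these cannot be told apart. Leaving out CNS replicate 1 raised the number of chemokine genes called higher, and leaving out CNS replicate 2 raised the number called lower. Over all genes tested, both numbers fell in each of these fits. Ccl4, for instance, had a log2 ratio of 0.15 without CNS replicate 1 and -1.58 without CNS replicate 2.

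**Figure D1:**
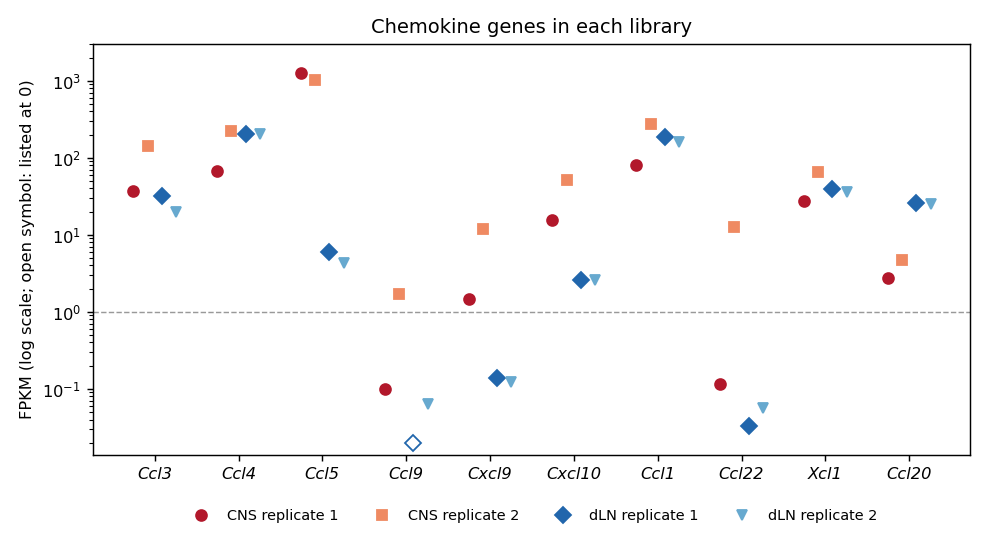
FPKM of the 10 chemokine genes on a log scale, with 1 symbol per library, CNS in red and orange and dLN in blues. The dashed line marks 1 FPKM and the open symbol a gene listed at 0. Ccl5 reached 1269 and 1019 FPKM in CNS against 5.98 and 4.31 FPKM in dLN, while Ccl1, Ccl4 and Xcl1 in dLN lay between the 2 CNS libraries.

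Ccl5 (Entrez gene 20304), also known as RANTES, lies on the minus strand of chromosome 11 from 83525779 to 83530518 (mm10). It was at 1269 FPKM in CNS replicate 1, 1019 FPKM in CNS replicate 2, 5.98 FPKM in dLN replicate 1 and 4.31 FPKM in dLN replicate 2. The tissues were far apart and the replicates close, with a mean of 1144 ± 177 FPKM (SD, n = 2) for CNS against 5.14 ± 1.18 FPKM (SD, n = 2) for dLN. The difference passed at a log2 ratio of 7.55 ± 0.18 (SE), with a limma adjusted p of 8.12e-05. Ccl5 ranked 93 and 113 among all gene symbols in the CNS libraries and 6698 and 7170 in the dLN libraries. It was the one chemokine gene of the 10 with less FPKM in CNS replicate 2 than in replicate 1, and its log2 ratio stayed between 7.35 and 7.78 over the settings tried.

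Ccl3 and Ccl4 encode MIP-1 alpha and MIP-1 beta, a pair of ligands that activated T cells and macrophages release together. They lie 13.2 kb apart on chromosome 11, Ccl3 from 83647843 to 83649378 on the minus strand and Ccl4 from 83662584 to 83664683 on the plus strand, and the gap from Ccl5 to Ccl4 is 132 kb. Ccl3 was at 36.5 and 141 FPKM in CNS and at 31.9 and 19.7 FPKM in dLN. Both CNS values lay above both dLN values, but CNS replicate 1 exceeded dLN replicate 1 by little. The log2 ratio of Ccl3 was 1.48 ± 0.66 (SE) and did not pass (limma adjusted p = 0.0962), although it did without CNS replicate 1 (log2 ratio 2.44). Ccl4 was at 66.6 and 222 FPKM in CNS and at 202 and 200.5 FPKM in dLN. The dLN libraries were nearly equal and lay between the CNS libraries, so the log2 ratio of -0.72 ± 0.56 (SE) did not exceed the spread between CNS replicates (limma adjusted p = 0.292). Without CNS replicate 2 Ccl4 was called lower, at -1.58, and without CNS replicate 1 it stood at 0.15 and was not called. The proportion of the pair also differed in value between tissues. Ccl4 had 1.82 and 1.58 times the FPKM of Ccl3 in the CNS libraries and 6.32 and 10.2 times in the dLN libraries. This ratio does not depend on the scaling of a library, and its difference between tissues was not tested.

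Ccl9 (MIP-1 gamma) lies in the same cluster from 83572917 to 83578636, between Ccl5 and Ccl3. It was at 0.1004 and 1.70 FPKM in CNS, listed at 0 in dLN replicate 1 and at 0.0641 FPKM in dLN replicate 2. These values correspond to an estimated 6, 103, 0 and 4 fragments. With a CNS mean of 0.902 FPKM it stayed under the filter and was not tested. Its FPKM was 3.13 times the dLN mean in CNS replicate 1 and 53.1 times in CNS replicate 2. Taken from the estimated fragments, with the dLN libraries pooled and scaled for depth, these ratios were 2.88 (95% exact binomial interval 0.682 to 13.9) and 48.4 (18.4 to 181). Intervals of this kind cover counting error alone, and the fragments are estimates.

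Cxcl9 and Cxcl10 lie 18.6 kb apart on the minus strand of chromosome 5, Cxcl9 from 92321331 to 92328079 and Cxcl10 from 92346639 to 92348889. The exons of Cxcl10 overlap annotated exons of Art3 on the other strand, and strand is not known to have been used for FPKM, but Art3 itself reached at most 0.168 FPKM. Promoters of interferon-induced chemokines are known for sites of interferon, AP-1 and NF-kappaB factors. The 250 bases before the start of Cxcl10 (chr5:92348890-92349139, minus strand) and of Cxcl9 (chr5:92328080-92328329, minus strand) are shown because both genes were called higher in CNS. They are from RefSeq on GRCm38.p6, 5′ to 3′, with matches to an ISRE-like motif (TTTC, any 2 bases, TTTC), an AP-1-like motif (TGANTCA) or the NF-kappaB consensus on either strand in capitals.
Cxcl10: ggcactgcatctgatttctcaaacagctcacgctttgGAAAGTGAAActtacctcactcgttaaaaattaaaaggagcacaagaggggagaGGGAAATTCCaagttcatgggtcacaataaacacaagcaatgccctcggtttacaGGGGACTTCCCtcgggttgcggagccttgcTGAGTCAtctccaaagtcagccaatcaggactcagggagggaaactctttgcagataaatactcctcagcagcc
Cxcl9: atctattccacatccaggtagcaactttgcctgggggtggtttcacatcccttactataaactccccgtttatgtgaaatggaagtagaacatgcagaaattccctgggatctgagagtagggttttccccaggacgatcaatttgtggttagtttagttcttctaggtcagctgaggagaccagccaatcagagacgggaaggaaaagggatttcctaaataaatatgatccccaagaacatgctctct

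In the window of Cxcl10 the ISRE-like match GAAAGTGAAA stood at bases -213 to -204 from the start, on the strand opposite to the motif as written. NF-kappaB matches stood at -159 to -150 (GGGAAATTCC) and, overlapping each other, at -104 to -94, and an AP-1-like match at -74 to -68. In Cxcl9 no such match fell within the 250 bases, and an AP-1-like one lay 32 to 38 bases past the start. Promoter windows of 300 bases, which include 50 after the start, could be matched by symbol for 8 of the 10 genes. None was at hand for Ccl4 or for Ccl5, which was also called higher in CNS. Among the 8, an ISRE-like match was found in 1, an AP-1-like match in 3 and an NF-kappaB match in 4. Among 32851 promoter windows of that length, 3.44%, 7.81% and 8.46% held them. A GAS-like motif (TTC, any 3 bases, GAA) was in none of the 8 and in 8.30% of the windows, and the NFAT core GGAAA, which lies within some of the other matches, was in 7 of the 8 and in 61.3% of the windows. A match describes letters in the window and is not a bound site.

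Cxcl10 (IP-10) was at 15.6 and 51.7 FPKM in CNS and at 2.60 and 2.57 FPKM in dLN. The dLN libraries agreed closely and both CNS libraries lay above them, at 6.03 and 19.99 times the dLN mean. With a log2 ratio of 3.04 ± 0.54 (SE) Cxcl10 passed (limma adjusted p = 0.00535), and it was called in each of the settings tried, with a log2 ratio of 2.21 at the lowest, without CNS replicate 2. Cxcl9 (MIG) was at 1.46 and 11.7 FPKM in CNS and at 0.139 and 0.123 FPKM in dLN, which is an estimated 84, 684, 7 and 7 fragments. The CNS libraries again lay above dLN and 8.04-fold apart from each other. Cxcl9 passed narrowly, with a log2 ratio of 2.31 ± 0.78 (SE) and a limma adjusted p of 0.0442. That call was lost without the filter (limma adjusted p = 0.118), without the variance trend (0.0507) and without either dLN library (0.132 and 0.140). Over the settings its adjusted p lay between 0.00453 and 0.140, and it was called without CNS replicate 2, at a log2 ratio of 1.12. Cxcl10 was above Cxcl9 in each of the 4 libraries, by 10.7 and 4.41 times in CNS and by 18.7 and 20.9 times in dLN.

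Of 17 interferon gamma response genes other than the chemokines, 13 were called higher in CNS and 3 lower, and their median log2 ratio was 1.22, against 37.8% and 37.2% of the genes tested and a median of 0.05. Irf1, a transcription factor of the interferon response, was at 97.1 and 125 FPKM in CNS and at 43.6 and 35.9 FPKM in dLN, and Ifng itself at 469 and 693 FPKM in CNS and at 324 and 138 FPKM in dLN. Unlike Cxcl9 and Cxcl10, Irf1 differed by less than 1.5-fold between the CNS libraries, and 3 of the 17 genes were over 1.5-fold higher in replicate 2. These 3 were Irf8 at 17.8 and 32.6 FPKM, Cd274 at 23.8 and 36.6 FPKM and the class II transactivator Ciita at 0.811 and 2.16 FPKM. Ciita, which antigen-presenting cells express, passed the filter through CNS alone and is 1 of the 13 called higher. Irf8, Socs1 and Cd274 were the 3 genes called lower in CNS.

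Ccl1 (I-309; chromosome 11, 82176666 to 82179812, minus strand) and Xcl1 (lymphotactin; chromosome 1, 164931648 to 164935510, minus strand) are ligands that T cells make on activation. Ccl1 was at 80.4 and 276 FPKM in CNS and at 189 and 158 FPKM in dLN. Xcl1 was at 27.4 and 65.5 FPKM in CNS and at 39.2 and 36.0 FPKM in dLN. For both genes CNS replicate 1 was the lowest library and CNS replicate 2 the highest, with the dLN libraries between them. The log2 ratios of -0.21 ± 0.58 (SE) for Ccl1 and 0.17 ± 0.41 (SE) for Xcl1 did not exceed the replicate spread, with limma adjusted p-values of 0.754 and 0.713. Ccl1 was called lower without CNS replicate 2 (log2 ratio -1.09) and higher without CNS replicate 1 (0.67), so its direction rested on 1 library. The same was true of Xcl1, at -0.44 and 0.79, which also reversed to -0.021 when the libraries were scaled to the same sum. The levels of both genes were high in each library, since Ccl1 ranked between 286 and 903 and Xcl1 between 1102 and 2507 among all symbols. Exons of Xcl1 overlap those of the noncoding gene Gm20743 on the other strand, which was listed at 0 in each library.

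Ccl22 (MDC; chromosome 8, 94745684 to 94751388, plus strand) is best known as a product of dendritic cells and macrophages that draws Ccr4-bearing T cells. It was at 0.115 FPKM in CNS replicate 1, 12.7 FPKM in CNS replicate 2, 0.0332 FPKM in dLN replicate 1 and 0.0557 FPKM in dLN replicate 2. Those levels stand for an estimated 4, 445, 1 and 2 fragments, so the gene was near the limit of detection in 3 libraries. It was not called, at 1.91 ± 1.18 (SE) on the log2 scale and a limma adjusted p of 0.197, but was without CNS replicate 1 (log2 ratio 3.72). Its FPKM was 2.59 times the dLN mean in CNS replicate 1 and 287 times in CNS replicate 2. From the estimated fragments, pooled over dLN, the ratios were 2.53 (95% exact binomial interval 0.428 to 17.3) and 279 (94.8 to 1357). Ccl17, the other Ccr4 ligand, had a like pattern, at 1.05 and 28.1 FPKM in CNS and at 0.165 and 0.137 FPKM in dLN. Of the 10 dendritic cell markers, 8 were over 1.5-fold higher in CNS replicate 2, such as Fscn1 at 0.304 and 5.35 FPKM and Siglech at 0.0852 and 5.10 FPKM, while Itgax was at 5.50 and 5.55 FPKM and Xcr1 at 1.90 and 1.395 FPKM. The part of such cells in Ccl22 was not tested.

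Ccl20 (MIP-3 alpha; chromosome 1, 83116766 to 83119167, plus strand) is a product of Th17 cells and inflamed epithelium. It was at 2.79 and 4.64 FPKM in CNS and at 26.0 and 25.3 FPKM in dLN. The dLN values were nearly equal and both CNS values lay well below them, at a mean of 3.72 ± 1.31 FPKM (SD, n = 2) against 25.7 ± 0.563 FPKM (SD, n = 2). Ccl20 passed at a log2 ratio of -2.53 ± 0.20 (SE) with a limma adjusted p of 0.000389, and it was called in each setting tried, between -2.81 and -2.24. Ccl20 has 2 transcripts in the tables that differ by 3 bases in length (799 and 802). The shorter took 0.317 and 3.25 FPKM in CNS and 9.79 and 7.12 FPKM in dLN, and the longer 2.47 and 1.39 FPKM in CNS and 16.3 and 18.1 FPKM in dLN. The longer transcript was thus the higher one in 3 libraries and the lower in CNS replicate 2. Reads of transcripts so alike can be divided between them in error, and the sum is the safer value. The 250 bases before the start of Ccl20 (chr1:83116516-83116765, plus strand) are shown for the one gene called lower, with its match to the NF-kappaB consensus at -80 to -71 in capitals.
Ccl20: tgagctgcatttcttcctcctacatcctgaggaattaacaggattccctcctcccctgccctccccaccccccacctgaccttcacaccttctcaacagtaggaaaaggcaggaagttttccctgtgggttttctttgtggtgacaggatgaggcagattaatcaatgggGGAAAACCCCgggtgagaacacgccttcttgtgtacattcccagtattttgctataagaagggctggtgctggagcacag

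**Figure D2:**
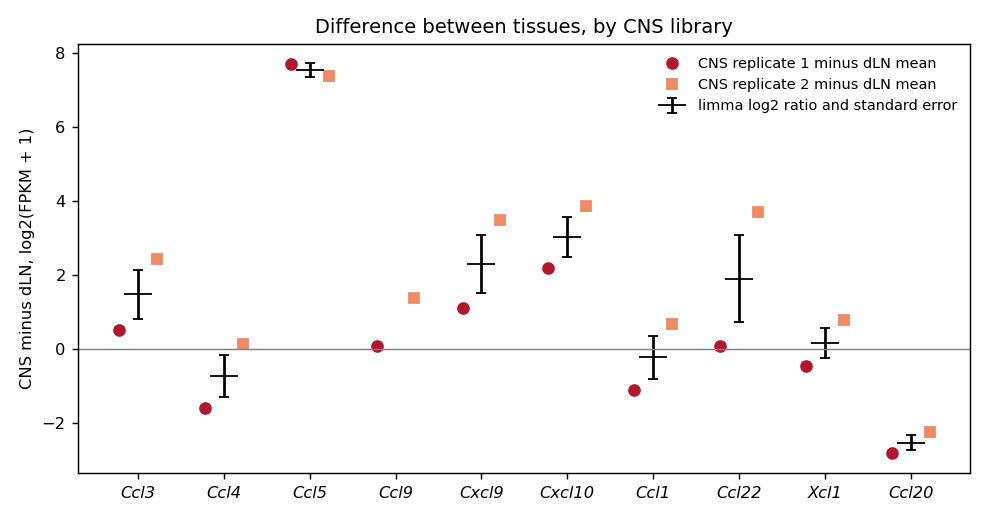
Log2(FPKM + 1) of each CNS library minus the mean of the 2 dLN libraries, for the 10 chemokine genes, with the limma log2 ratio and its standard error in black for the 9 genes tested. The CNS libraries lie on opposite sides of 0 for Ccl1, Ccl4 and Xcl1, and close together at 7.71 and 7.39 for Ccl5.

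The CNS libraries differed from each other in most of these genes. CNS replicate 2 was over 1.5-fold higher than replicate 1 for 9 of the 10, and the median ratio was 3.39. Among 10558 tested genes above 0 in both CNS libraries, 7.56% were over 1.5-fold higher in replicate 2 and the median ratio was 1.02. The same was seen in 19 of the 30 other chemokine ligand genes, some of them near 0, such as Ccl28 at 0 and 0.0260 FPKM. The 9 of these that reached the filter had ratios from 2.23 for Ccl27a to 43.2 for Cxcl2, so the difference was not particular to the 10. The ratio was 111 for Ccl22, 17.0 for Ccl9, 8.04 for Cxcl9, 3.86 for Ccl3, 3.43 for Ccl1, 3.34 for Ccl4, 3.31 for Cxcl10, 2.39 for Xcl1 and 1.67 for Ccl20. Of the tested genes, 0.0474% had a ratio above that of Ccl22 and 6.00% one above that of Ccl20. Ccl5 was at 0.803, within 1.5-fold. In dLN, 2 of 9 genes with a value in both libraries lay beyond 1.5-fold. They were Ccl3, which was lower in replicate 2, and Ccl22, which rests on 3 estimated fragments in dLN.

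Many markers of other cells, and some genes of stimulation, were also over 1.5-fold higher in CNS replicate 2. Of the 15 macrophage and microglia markers, 13 were over 1.5-fold higher in CNS replicate 2, with Lyz2 at 3.22 and 92.1 FPKM, Tyrobp at 1.84 and 55.9 FPKM and Cd14 at 1.87 and 30.5 FPKM. Cx3cr1 was not, at 5.54 and 4.03 FPKM. The complement gene C1qb had 3.57 and 12.5 FPKM in CNS and was listed at 0 in dLN. The neutrophil gene S100a8 was listed at 0 in CNS replicate 1 and at 101 FPKM in replicate 2. None of the 13 T-cell identity genes was over 1.5-fold higher in CNS replicate 2. Of 25 genes induced by T-cell stimulation, 9 were over 1.5-fold higher in CNS replicate 2, against 7.56% of tested genes above 0 in both CNS libraries. The largest ratios were those of Egr2, at 9.52 and 20.8 FPKM, and Il2, at 18.2 and 38.8 FPKM. By any amount, 23 of the 25 were higher in CNS replicate 2, where the median ratio of tested genes was 1.02. Cd69 and Cd40lg were lower there, at 0.989 and 0.955 times replicate 1. Between the tissues, 17 of these 25 were called lower in CNS and 6 higher (37.2% and 37.8% of all genes tested), at a median of -2.10 (log2), and Il2 reached 5363 and 6176 FPKM in dLN. The part of such cells or of stimulation in the levels of the chemokine genes was not tested.

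**Figure D3:**
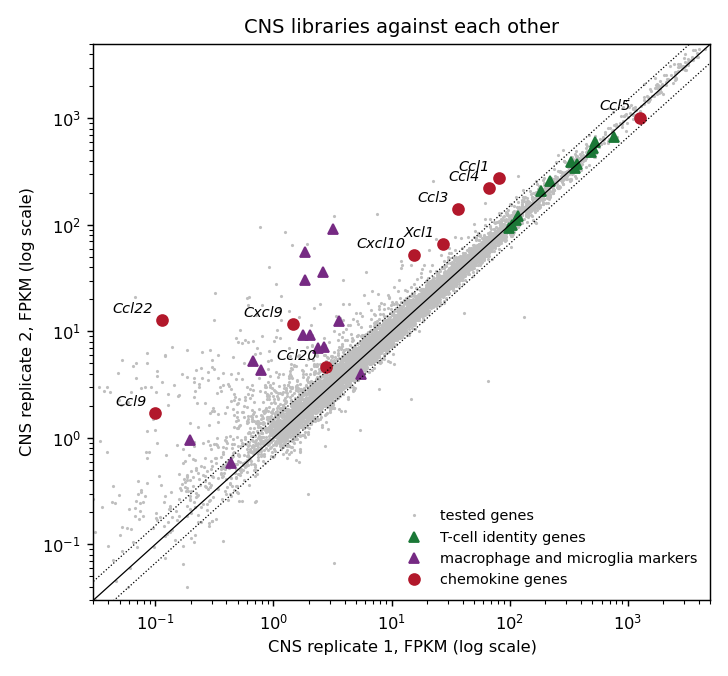
FPKM of CNS replicate 2 against CNS replicate 1 on log axes for tested genes (grey), the 10 chemokine genes (red), T-cell identity genes (green) and macrophage and microglia markers (purple). The solid line marks equal values and the dotted lines 1.5-fold. Of the chemokine genes, 9 lie above the upper dotted line and Ccl5 lies just under the line of equal values.

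The make-up of the chemokine ligand RNA differed between tissues. FPKM is per length of transcript, so levels of genes can be set side by side within a library. The 10 genes and 30 other ligand genes in the tables together summed to 1512 and 1921 FPKM in CNS and to 627 and 566 FPKM in dLN. Ccl5 made up 84.0% of that sum in CNS replicate 1, 53.0% in CNS replicate 2 and 0.953% and 0.761% in dLN. Without Ccl5, the sums were 243 and 902 FPKM in CNS and 621 and 562 FPKM in dLN, so the dLN libraries again lay between the CNS libraries. In dLN the largest shares were those of Ccl4, at 32.2% and 35.4%, and of Ccl1, at 30.1% and 28.0%. Cxcl9 and Cxcl10 together stayed small, with Cxcl10 at 1.03% and 2.69% in CNS and under 0.5% in dLN. The other ligand genes held the remainder, and the 10 genes made up 99.2% and 94.0% in CNS and 79.1% and 78.9% in dLN.

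**Figure D4:**
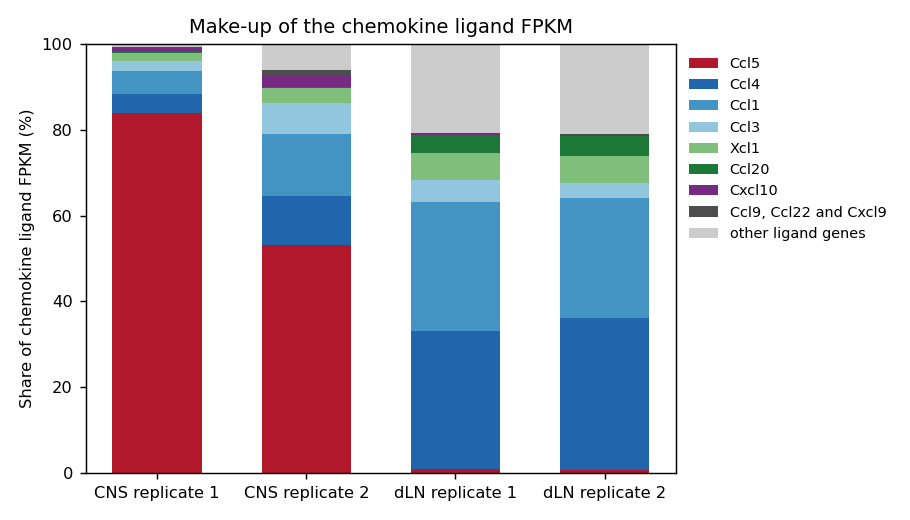
Share of each chemokine gene in the summed FPKM of the chemokine ligand genes, in percent, with 1 bar per library. Ccl5 takes 84.0% and 53.0% of the CNS bars and under 1% of the dLN bars, in which Ccl4 and Ccl1 take the largest shares.

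Of the 30 other ligand genes in the tables, 9 reached the filter, of which 2 were called higher and 1 lower in CNS. The median of their log2 ratios was 1.396. Of these 9, Ccl2, Ccl6, Ccl17, Ccl19, Cxcl1 and Cxcl16 passed the filter through CNS alone, both genes called higher among them, so neither that count nor the median is a result about the ligands. Ccl19, a ligand of Ccr7 in lymphoid tissue, had 2.12 and 9.18 FPKM in CNS and was listed at 0 in dLN, so its CNS mean was at least 18.3-fold higher than the floor of 3 fragments per library, or at least 6.88-fold in CNS replicate 1 and 29.8-fold in CNS replicate 2 alone. It was called (limma adjusted p = 0.0122) except without either dLN library, where the adjusted p was 0.0546 and 0.0576. Cxcl1, a neutrophil attractant, was also called higher, at 1.14 and 2.63 FPKM in CNS and at most 0.118 FPKM in dLN. Cxcl3, which acts on the same receptor of neutrophils, was lower in CNS, at 2.26 and 5.95 FPKM against 77.5 and 58.9 FPKM (log2 ratio -3.85, limma adjusted p = 0.000723). Cxcl2 had 49.1 and 56.4 FPKM in dLN against 0.923 and 39.8 FPKM in CNS, a log2 ratio of -2.60 that did not pass (limma adjusted p = 0.156). Ccl2 and Ccl6, known from monocytes and macrophages, were at 0.292 and 6.71 FPKM and at 0.521 and 10.4 FPKM in the CNS libraries, the higher value in replicate 2, and were listed at 0 in dLN. Neither was called, with limma adjusted p-values of 0.132 and 0.105, nor were Ccl17 (0.0998), Cxcl16 (0.209) and Ccl27a (0.888). Cxcl16, the ligand of Cxcr6, was at 0.562 and 5.07 FPKM in CNS and at 0.572 and 0.480 FPKM in dLN. Cxcl11, the neighbour of Cxcl9 and Cxcl10 in that cluster, was under the filter at 0.267 and 0.928 FPKM in CNS and listed at 0 in dLN.

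Receptors of the chemokines were measured in the same cells, and 6 of the 9 receptor genes described here reached the filter. Of these, Cxcr3 was called higher in CNS and Ccr4, Ccr6 and Ccr8 lower, and these directions held in each setting tried. Among all genes tested 74.9% were called, 37.8% as higher and 37.2% as lower. The share of receptor genes called was thus not above the background. Cxcr3 was at 192 and 189 FPKM in CNS and at 83.3 and 94.6 FPKM in dLN (log2 ratio 1.09, limma adjusted p = 0.000447). Its direction was that of its ligands Cxcl9 and Cxcl10. Ccr6 was at 2.81 and 3.35 FPKM in CNS and at 25.6 and 22.5 FPKM in dLN (log2 ratio -2.62, limma adjusted p = 0.000102), the same direction as its ligand Ccl20. Ccr8 was at 33.7 and 47.4 FPKM in CNS and at 154 and 177 FPKM in dLN (log2 ratio -2.02, limma adjusted p = 0.000541), although its ligand Ccl1 did not differ beyond the replicate spread. Ccr4 fell in CNS as well, from 76.5 and 62.6 FPKM in dLN to 17.7 and 19.6 FPKM (log2 ratio -1.84, limma adjusted p = 0.000264). Ccr1 at 1.64 and 6.01 FPKM in CNS and 3.59 and 1.25 FPKM in dLN was not called (limma adjusted p = 0.528). Xcr1 stayed between 0.944 and 1.91 FPKM (limma adjusted p = 0.596), Ccr3 stayed under 1 FPKM, and the scavenging receptors Ackr2 and Ackr4 were listed at 0. In contrast to most of the ligands, 1 of the 9 receptor genes, Ccr1, was over 1.5-fold higher in CNS replicate 2 than in replicate 1. Ackr2 and Ackr4, at 0, could not show such a difference. Among tested genes above 0 in both CNS libraries the share was 7.56%.

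**Figure D5:**
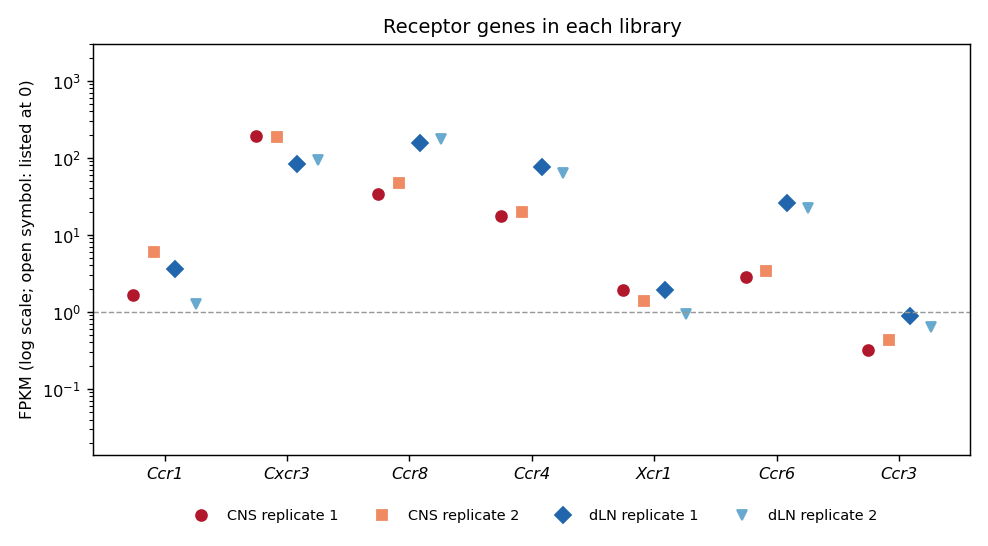
FPKM of 7 receptor genes of the chemokines on a log scale, with 1 symbol per library and the dashed line at 1 FPKM. Cxcr3 lies higher in both CNS libraries (red and orange), Ccr8, Ccr4 and Ccr6 lie lower there, and Ccr1 and Xcr1 overlap.

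The genes nearest in pattern to Ccl5 and to Ccl20, the highest and the lowest log2 ratio of the 9, were found by the distance of centred log2(FPKM + 1) values over the 4 libraries. For Ccl5 they were Ly6c2 (distance 0.614), the small nucleolar RNA Snora30 (0.659) and the heat-shock gene Hspa1a (0.944). Ly6c2 was at 331 and 263 FPKM in CNS and at 1.96 and 0.379 FPKM in dLN. As with Ccl5, its value was lower in CNS replicate 2, whereas Snora30, at 169 and 242 FPKM, and Hspa1a, at 1367 and 2082 FPKM, were higher there. For Ccl20 they were the prostaglandin receptor gene Ptger2 (0.110), Wdr4 (0.130) and the ribosome biogenesis gene Fbl (0.147). Ptger2 was at 5.34 and 7.85 FPKM in CNS and at 40.6 and 42.9 FPKM in dLN. With 4 libraries many genes can lie close, and the distances are a description.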

How the data were processed

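RNA of CD44+CD4 cells from CNS and dLN was sequenced with TruSeq RNA V2 libraries on an Illumina HiSeq2500. After trimming and mapping, the authors deposited 1 table of FPKM per tissue, with 33819 RefSeq transcripts on mm10. The aligner and the program behind FPKM are not given in the sources used here. The CNS header gives both library names in the same field, and they were read in that order. From the deposited FPKM, values were summed by gene symbol, and 565 transcripts with no symbol were left out, which held up to 0.446% of a library's FPKM. The 10634 genes that reached a mean of 1 FPKM in either tissue were tested with limma 3.58.1 in R 4.3.3 (lmFit and eBayes with trend) on log2(FPKM + 1), with tissue as the term and Benjamini-Hochberg adjustment over all of them. The tables were compared across tissues, each library having been scaled to its own total. An exact permutation test of 2 against 2 libraries cannot go below p = 0.333. Depth came from steps of low FPKM values, of which 88.6% to 91.9% lay within 0.1 of a whole fragment. The tests used FPKM and not these estimates. The fit and the depth estimate were tested on simulated data. Positions are given from 1, and overlapping genes came from GENCODE M21. Genes named are the 10, the other ligands past the filter, the receptors, members of marker and response lists, and the 3 nearest genes in pattern to the extremes. S100a8 and other list members shown as examples were chosen after their values were seen. Some genes of the receptor, B-cell and interferon lists are not reported here and do not enter their counts. The genes and lists were chosen with earlier results of these data known. Alternatives covered pseudocount, filter, scaling, transcript choice, variance trend, a replicate block and leaving out each library. Tables were handled in Python 3.11.15 with pandas 2.3.3, and intervals came from scipy 1.17.1.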

Additional observations from a re-analysis of the deposited data

How the results depend on the processing

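The number of chemokine genes called higher in CNS was 3, and 2 without the filter and without the variance trend, where Cxcl9 was lost. It ranged from 2 to 7, and the number called lower from 1 to 4, with each library left out. Of 90 comparisons of single chemokine genes with other settings, 87 kept direction and side of the threshold, Cxcl9 lost its call in 2, and Xcl1 turned to -0.021 when libraries were scaled to the same sum. That scaling moved the median log2 ratio of the genes tested by -0.17 and the same upper quartile by 0.12. With a library left out, 26 of 36 were kept, and the log2 ratios of those that reversed ranged from -1.09 to 0.67 for Ccl1, from -1.58 to 0.15 for Ccl4 and from -0.44 to 0.79 for Xcl1, as the CNS libraries lie on both sides of dLN. Of the other ligands, 2 were called higher, but 5 with a pseudocount of 0.1, 1 with a filter at 5 FPKM and 1 to 6 with a library left out, and 1 was called lower, but 3 without a filter and 1 to 2 with a library left out. Of the interferon gamma response genes, 3 were called lower, and 1 to 3 with a library left out. Ccl27a reversed to 0.029 with the same upper quartile and 0.10 with the highest transcript, and ranged from -0.39 to 0.29 with a library left out. So did Ccr1, from -0.28 to 1.13, and Xcr1, from -0.14 to 0.44. The cause of these reversals was not tested. Fits without a library assume that the lone library of its tissue varies like those of the other tissue. Replicate numbers are shared between tissues, but the replicate differences correlated at 0.0933 across genes and no label ties the numbers to a shared animal or day. Ddx3y was found in CNS only and Xist almost only in dLN, so same-numbered libraries did not come from the same animals. Libraries were treated as unpaired. With a replicate block 7828 genes were called in place of 7968, and no call of a chemokine gene changed. FPKM hides depth, and Ccl9, Ccl22 and Cxcl9 in dLN rest on 0 to 7 estimated fragments.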
